A study of Mus musculus with 22 samples.

Results

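The 7 distal colon libraries of Winnie mice were examined as a gradient of inflammation, from the least to the most inflamed mouse of the group. Each library was given an inflammation score chosen by measured values, the mean log2(CPM + 0.5) of 6 genes that are raised in inflamed colon (S100a8, S100a9, Lcn2, Duox2, Nos2 and Reg3g), where CPM (counts per M) is the count of a gene divided by the total of its library in M. All other genes with a mean of at least 1 CPM over the 7 libraries were then related to that score. The study's methods describe fewer Winnie colons for RNA-seq than the 7 labelled libraries analysed here and do not say which was left out. The rule took 7 of 22 libraries and left 14955 of 46078 genes to test. At the limit, the gene model RP23-453M11.4 was just inside with 1.001 CPM and Star just outside with 0.999 CPM.

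RNA was sequenced from distal colon of C57BL/6 mice aged 14 weeks (4 males and 4 females), Winnie mice aged 14 weeks (3 males and 4 females) and a group labelled Winnie-Prolapse, Winnie mice with a prolapsed rectum at 18 weeks of age (4 males and 3 females). Winnie mice carry a missense mutation of Muc2, the gene of the secreted mucin of goblet cells, on the C57BL/6 background, and develop colitis with no added agent. Both Winnie groups carry the same mutation, and the labels name no treatment agent. Age differs between Winnie and Winnie-Prolapse and cannot be told apart from prolapse. Each library is labelled as 1 mouse, and replicate numbers follow the sample list, so they pair no animals. The labels name no batch.

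In colitis, neutrophils enter the mucosa under the pull of CXC chemokines and release S100a8 and S100a9, a calcium-binding pair, and other granule proteins. The epithelium responds with bactericidal proteins (Lcn2, Reg3g) and with enzymes that make hydrogen peroxide (Duox2) or nitric oxide (Nos2), while T cell interferon raises antigen presentation. Mature colonocytes, which absorb salt and water, handle foreign chemicals and burn butyrate, lose the products of these tasks as crypts regenerate. Since whole tissue was sequenced, fewer cells of a type and less RNA per cell cannot be told apart in any of the values below.

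The score of the Winnie libraries was 1.40 in replicate 5, 2.20 in replicate 4, 2.36 in replicate 6, 3.11 in replicate 3, 3.86 in replicate 7, 4.63 in replicate 1 and 6.11 in replicate 2 (3.38 ± 1.62, SD, n = 7). The scores were spread over 4.72 log2 units. The score was 1.04 to 2.28 (n = 8) in C57BL/6 and 5.63 to 8.55 (n = 7) in Winnie-Prolapse, so Winnie replicates 4 and 5 lay inside the C57BL/6 range and Winnie replicate 2 inside the Winnie-Prolapse range. Without C57BL/6 replicate 7 the highest C57BL/6 score was 1.73, and Winnie replicate 5 alone lay in that range. A step of 1 unit is a 2-fold difference in the geometric mean of the 6 genes (each with 0.5 CPM added). Over the Winnie libraries S100a8 ran from 0.0984 CPM to 36.2 CPM, S100a9 from 0.135 CPM to 38.9 CPM and Lcn2 from 0.878 CPM to 23.2 CPM. Nos2 ran from 2.36 to 289 CPM, Reg3g from 0.193 to 30.1 CPM and Duox2 from 219 to 823 CPM. Duox2 thus varied least and was present in every library. Nos2 and Duox2 were highest in replicate 1, below the top of the score. Reg3g was lowest in replicate 3 (0.193 CPM, 5 counts) and at most 1.79 CPM outside replicate 2. The Pearson r of each gene with the mean of the others was 0.98 for S100a8, 0.92 for S100a9 and 0.92 for Lcn2. It was 0.81 for Nos2, 0.74 for Duox2 and 0.70 for Reg3g. These 6 genes define the score, so their levels are a description with no test.

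**Figure D1:**
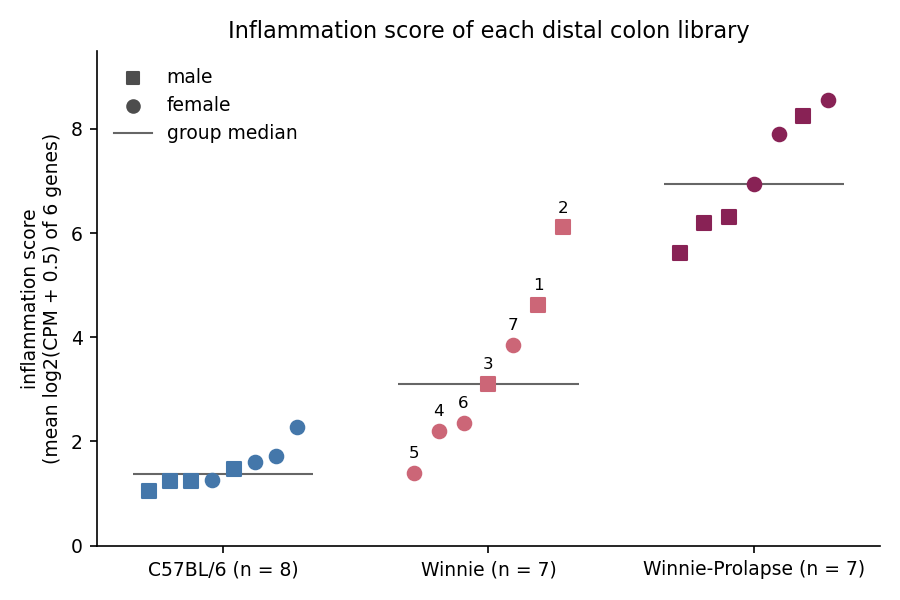
Inflammation score (mean log2(CPM + 0.5) of 6 genes) of every distal colon library by group, with squares for males, circles for females, a line at each group median and replicate numbers on the Winnie points. The Winnie libraries run from 1.40 to 6.11 and reach into the ranges of both other groups.

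The 3 male Winnie mice had scores of 3.11, 4.63 and 6.11 and the 4 females 1.40, 2.20, 2.36 and 3.86. The means were 4.62 ± 1.501 (SD, n = 3) and 2.46 ± 1.03 (SD, n = 4), a difference of 2.16 (exact two-sided permutation test, p = 0.0857, adjusted over the 3 groups 0.129, the smallest p that 35 splits allow being 0.0286). In the other groups males had the lower mean, by -0.47 in C57BL/6 (exact p = 0.0571) and by -1.21 in Winnie-Prolapse (exact p = 0.171). All 331 genes that rose with the score in Winnie (below) had the higher mean in Winnie males, against 64.6% of all tested genes, while in C57BL/6 35.3% and in Winnie-Prolapse 34.1% of them did, against 51.6% and 74.1%. Of the 391 genes that fell, 0% had the higher mean in males in Winnie, 62.9% in C57BL/6 and 92.8% in Winnie-Prolapse. The Winnie shares follow largely from how the genes were called, since Winnie males had the higher mean score. Library totals were 25.9 to 36.3 M counts in Winnie and 24.8 to 36.3 M over the series. Across the 7 Winnie libraries the score had a Pearson r of 0.21 with the total (exact permutation p = 0.658, Spearman rho 0.36, p = 0.444) and of 0.32 without replicates 2 and 5, the 2 libraries farthest from the median score. With the number of genes detected r was 0.10 (exact permutation p = 0.828, rho 0.21, p = 0.662), and 0.95 without those 2 libraries. With the mitochondrial share of counts r was -0.69 (exact permutation p = 0.0833, rho -0.64, p = 0.139), and -0.13 without those 2. Adjusted over these 3 relations, the smallest p was 0.25.

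Distal colon markers fitted the label in every Winnie library, with Hoxb13 at 364 to 437 CPM, Hoxd13 at 119 to 226 CPM and Hoxa13 at 60.6 to 103 CPM. The library labelled C57BL/6 replicate 7 went against it in 2 of these 3 markers. There Hoxb13 was 16.4 CPM against 377 to 612 CPM in the other 7 C57BL/6 libraries, and Hoxd13 was 0.217 CPM against 132 to 288 CPM, while Hoxa13, at 86.6 CPM, was within the 71.8 to 101 CPM of the others. That library also had the highest C57BL/6 score. C57BL/6 ranges are therefore given with and without it where a bound moves by over 1.5 times, and no slope in Winnie uses it. In Winnie-Prolapse replicate 6, 18.0% of the counts came from milk protein genes, which held at most 0.000549% in any Winnie library.

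The question was which genes followed the score from mouse to mouse. Of 14955 genes, 331 rose and 391 fell with the score at an adjusted p under 0.05, with edgeR's quasi-likelihood F test and the score as a number, or 2.21% and 2.61% of those tested (4.83% together). The slope is the log2 change per unit of score, given with its standard error. Calls below are those of this edgeR fit unless another fit is named. The median slope of all tested genes was 0.0011 and 50.5% were positive, which the TMM scaling sets near 0 and near even shares. Without TMM factors 422 genes rose and 343 fell. The smallest adjusted p was 0.0032 and no gene reached 0.001, while 1899 rising and 1861 falling genes had an unadjusted p under 0.05. With DESeq2 995 genes rose and 1127 fell, of which 614 had an adjusted p under 0.001.

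The calls rested on few libraries. With replicate 5, the lowest score, left out, 24 genes rose and 17 fell, and with replicate 2, the highest, 60 and 27. Without replicate 1 they were 98 and 80, without replicate 4 122 and 128, and without replicate 6 208 and 262. With replicate 3, the middle of the scale, left out the counts went up to 739 and 722. Without both replicates 2 and 5, or with sex as a covariate, no gene was called (1253 and 1827 genes with an unadjusted p under 0.05). With sex as a covariate all 331 rising and all 391 falling genes kept the sign of their slope. Within the 4 females alone, 310 of the 331 rising genes (93.7%, against 39.9% of all tested genes) and all 391 falling genes (against 60.1%) varied with the score in the same direction. In the 3 males all 722 did, against 48.7% and 51.3% of all tested genes. These are the libraries that gave the calls, and sex was not separated from inflammation by any fit that left a call.

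A set of 16 genes, chosen after their values were seen, was called in each of the 7 fits that left out 1 library. The 5 that rose were Saa3, Cwh43, Sulf2, Apobec3 and Tmem173, and the 11 that fell were Mep1a, Hao2, Pdzd7, Fam189a2, Pm20d1, Ociad2, Ctsf, Crim1, Usp53, Fam134b and the gene model Gm15998. Values below are given in the order of the score, from replicate 5 over replicates 4, 6, 3, 7 and 1 to replicate 2. Saa3 (ENSMUSG00000040026, chr7:46711998-46715700, minus strand, GRCm38), an acute phase serum amyloid made by epithelium and macrophages, was 0.492, 0.642, 1.01, 1.62, 4.59, 13.2 and 33.9 CPM. It rose with every step of the score and reached beyond the C57BL/6 range of 0.0684 to 4.40 CPM from replicate 7 onward. Its slope was 1.41 ± 0.09, adjusted p = 0.0032, and -0.60 ± 0.04 with the same adjusted p was that of Mep1a, which encodes a brush border metalloprotease (ENSMUSG00000023914, chr17:43474324-43502812, minus strand). Mep1a was 383, 253, 228, 222, 146, 108 and 51.5 CPM, falling at every step, against 336 to 738 CPM in C57BL/6 (336 to 457 CPM without replicate 7).

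Tmem173, the gene of the innate DNA-sensing adaptor STING, was 15.98, 16.7, 18.8, 23.2, 26.2, 34.97 and 54.1 CPM (slope 0.37 ± 0.03, adjusted p = 0.00432). It rose at every step, above the C57BL/6 range of 5.51 to 16.97 CPM (10.1 to 16.97 CPM without replicate 7) in the upper 5 libraries. Apobec3, a cytidine deaminase gene of antiviral defence, was 45.1, 56.98, 45.9, 79.7, 88.5, 109.8 and 158 CPM (slope 0.39 ± 0.04, adjusted p = 0.00432). Sulf2, which encodes an enzyme that trims sulfate from heparan sulfate, was 12.1, 18.8, 22.7, 37.1, 31.5, 47.7 and 94.1 CPM (slope 0.56 ± 0.05, adjusted p = 0.00452), and Cwh43 was 6.46, 10.6, 12.3, 16.4, 24.2, 29.4 and 54.6 CPM (slope 0.61 ± 0.05, adjusted p = 0.00432). Each of these 4 was at its highest in replicate 2. Among the genes that fell, Hao2, a peroxisomal hydroxy acid oxidase gene, was 229.9, 200.2, 154, 79.9, 52.5, 43.8 and 19.99 CPM (slope -0.81 ± 0.07, adjusted p = 0.00432). Pdzd7 was 59.7, 30.1, 18.3, 15.3, 12.4, 5.998 and 1.67 CPM (slope -1.02 ± 0.08, adjusted p = 0.00432) and Fam189a2 84.6, 69.3, 66.9, 28.2, 17.7, 9.82 and 6.02 CPM (slope -0.93 ± 0.09, adjusted p = 0.00432). All 3 fell at every step of the score. Pm20d1, whose secreted enzyme makes N-acyl amino acids, was 32.4, 24.2, 21.9, 15.5, 12.5, 11.1 and 6.41 CPM (slope -0.50 ± 0.04, adjusted p = 0.00432). With sex as a covariate the slopes of the 16 genes were between -1.01 and 1.43 and their adjusted p between 0.0518 and 0.154, so none was called.

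Promoters of genes that moved together were read for short motifs. RefSeq's promoter sequences on GRCm38.p6, 250 bases before to 50 after the start site, were matched for 231 of the rising, 281 of the falling and 10456 of all tested genes, on both strands. The AP-1 motif TGANTCA was present in 13.4% of rising, 4.98% of falling and 6.75% of all tested promoters. The interferon regulatory factor motif TTCNNTTTC was present in 13.9%, 9.96% and 8.84%, and in 8.66%, 3.91% and 3.80% when a further T before it was required. The STAT motif TTCNNNGAA was in 11.7%, 8.19% and 8.37%. The NF-kB motif GGGACTTTC was found in 0.433%, 1.07% and 0.478% (0.433%, 0.356% and 0.258% with a further C at its end). For the liver and gut factors, the HNF4 motif CAAAGTCCA was in 0.433%, 1.42% and 0.545%, and the HNF1 motif GTTAATNAT in 1.73%, 1.42% and 0.564% (0.433%, 1.07% and 0.287% with a further T at its end). The AP-1 share of the rising genes was thus above that of all promoters, and the order of the NF-kB and HNF1 shares moved with 1 base of the motif. The motifs were chosen after the slopes were seen and were not tested, the STAT and interferon motifs can overlap, and a match is a run of letters rather than a shown binding site. The following 3 promoters are printed to show such matches in genes of either direction, 5′ to 3′ on the strand of the gene, with the match in capitals. Saa3 (chr7:46715627-46715926, minus strand) holds the interferon motif on its reverse strand, starting at position -125 from the start site. Cp (chr3:19956804-19957103, plus strand), the gene of the copper ferroxidase ceruloplasmin, holds the AP-1 motif at -177 and a match to the HNF1 motif. Osbpl6 (chr2:76498756-76499055, plus strand), an oxysterol-binding protein gene that fell, holds the HNF4 motif on its reverse strand at -20. This window is at an internal start site of Osbpl6, whose gene spans chr2:76406508-76600647, plus strand, and the counts do not show from which start its transcripts came. A gene was counted as holding a motif where any of its windows did.
Saa3: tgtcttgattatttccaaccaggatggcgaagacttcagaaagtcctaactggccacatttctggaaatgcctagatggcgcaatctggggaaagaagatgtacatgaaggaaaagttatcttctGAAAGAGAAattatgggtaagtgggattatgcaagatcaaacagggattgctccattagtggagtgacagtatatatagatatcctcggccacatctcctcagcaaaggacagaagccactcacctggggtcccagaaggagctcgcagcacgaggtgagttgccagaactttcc
Cp: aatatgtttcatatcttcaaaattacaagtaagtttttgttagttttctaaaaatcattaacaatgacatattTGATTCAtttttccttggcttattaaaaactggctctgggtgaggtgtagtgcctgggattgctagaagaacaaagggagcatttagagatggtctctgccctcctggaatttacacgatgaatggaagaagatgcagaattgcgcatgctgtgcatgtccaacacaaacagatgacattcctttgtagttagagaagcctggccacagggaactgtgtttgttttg
Osbpl6: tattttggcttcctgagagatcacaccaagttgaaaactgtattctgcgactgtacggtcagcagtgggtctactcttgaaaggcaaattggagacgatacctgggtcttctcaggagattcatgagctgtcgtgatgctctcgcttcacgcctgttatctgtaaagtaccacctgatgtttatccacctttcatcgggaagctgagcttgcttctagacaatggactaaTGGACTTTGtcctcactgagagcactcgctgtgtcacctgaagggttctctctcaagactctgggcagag
Cp was 6.14, 8.65, 8.43, 12.8, 9.78, 23.6 and 45.9 CPM (slope 0.58 ± 0.06, adjusted p = 0.00679) and Osbpl6 40.3, 30.5, 30.6, 28.6, 21.4, 18.5 and 17.1 CPM (slope -0.29 ± 0.03, adjusted p = 0.00856). Cp thus stood out most in replicates 1 and 2, and Osbpl6 was lowest there.

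The 10 largest positive slopes by the rule for named genes came from 226 eligible genes. Sprr2h, a cornified envelope precursor, was 0.295, 1.62, 1.84, 11.6, 13.2, 36.2 and 51.04 CPM (slope 1.46 ± 0.22, adjusted p = 0.017), above the C57BL/6 range of 0.0386 to 0.547 CPM in 6 of 7 libraries. Plet1, a surface protein gene of regenerating epithelium, was 3.54, 27.7, 30.9, 14.8, 239.5, 323 and 487 CPM (slope 1.45 ± 0.29, adjusted p = 0.0336). Its C57BL/6 range was 0.952 to 155 CPM, and 0.952 to 2.89 CPM without C57BL/6 replicate 7, which all 7 Winnie libraries exceeded. Lrg1, an acute phase glycoprotein gene, was 3.02, 2.40, 3.19, 3.78, 23, 26.7 and 214 CPM (slope 1.41 ± 0.14, adjusted p = 0.00476), low in 4 libraries and far higher in replicate 2 than in any other. Ltf, which encodes the iron-binding lactoferrin, was 0.427, 0.405, 2.21, 2.43, 10.8, 18.5 and 28.4 CPM (slope 1.37 ± 0.21, adjusted p = 0.0181). Ighg2c, an immunoglobulin heavy chain constant gene, was 0.919, 0.811, 1.18, 0.0771, 0.703, 18.1 and 34.4 CPM (slope 1.32 ± 0.30, adjusted p = 0.0469), so that replicates 1 and 2 alone stood above the rest. Saa3 (above) is also among the 10, and the others were Cxcl5 (slope 1.17 ± 0.23), the carboxylesterase gene Ces2f (1.07 ± 0.24), the serpin gene Serpina3f (1.06 ± 0.21) and Csf3r (0.99 ± 0.10), the receptor of granulocyte colony-stimulating factor. Another carboxylesterase gene, Ces2a of the detoxification list, fell (slope -0.49 ± 0.08, adjusted p = 0.0189).

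The 10 largest negative slopes came from 308 eligible genes and include Pdzd7 and Fam189a2 (above). Ang4, a bactericidal ribonuclease gene of Paneth and goblet cells, was 33.1, 38.3, 5.98, 0.116, 1.91, 0.138 and 0.0961 CPM (slope -2.25 ± 0.46, adjusted p = 0.0362). It was above 5 CPM in the 3 lowest libraries and under 0.15 CPM in 3 of the other 4, but its C57BL/6 range was as wide, 0.0386 to 53.03 CPM (0.0386 to 10.6 CPM without C57BL/6 replicate 7). Cyp2c55, a cytochrome P450 gene, was 768, 1164, 361, 332, 65.05, 18.3 and 11.6 CPM (slope -1.59 ± 0.23, adjusted p = 0.0142) against 331 to 3166 CPM in C57BL/6 (331 to 1599.7 CPM without replicate 7), which makes it a drop through the lower end of that range between replicates 3 and 7. The steroid dehydrogenase genes Hsd3b2 (slope -1.21 ± 0.20) and Hsd3b3 (-1.07 ± 0.19) fell together, but they share much of their sequence and their counts are not certain to be separate. Hsd3b3 was 105, 137, 104, 14.8, 29.5, 17.6 and 4.97 CPM. Dpep1, a brush border dipeptidase gene, was 153, 267, 193, 16.4, 28.5, 25.9 and 9.68 CPM (slope -1.10 ± 0.25, adjusted p = 0.0459) and Klb, the co-receptor gene of FGF19-type hormones, 15.5, 14.96, 9.58, 2.85, 1.64, 1.10 and 0.897 CPM (slope -1.07 ± 0.16, adjusted p = 0.0156). Both were several-fold lower in the upper 4 libraries than in the lower 3. Clca1, a goblet cell secretory gene, was 1796, 4842, 3401, 717, 902, 599.8 and 241 CPM (slope -0.93 ± 0.21, adjusted p = 0.0487), and Pck1, of gluconeogenesis, was 334, 157, 171, 36.3, 54.2, 36.3 and 19.5 CPM (slope -0.88 ± 0.13, adjusted p = 0.0152).

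**Figure D2:**
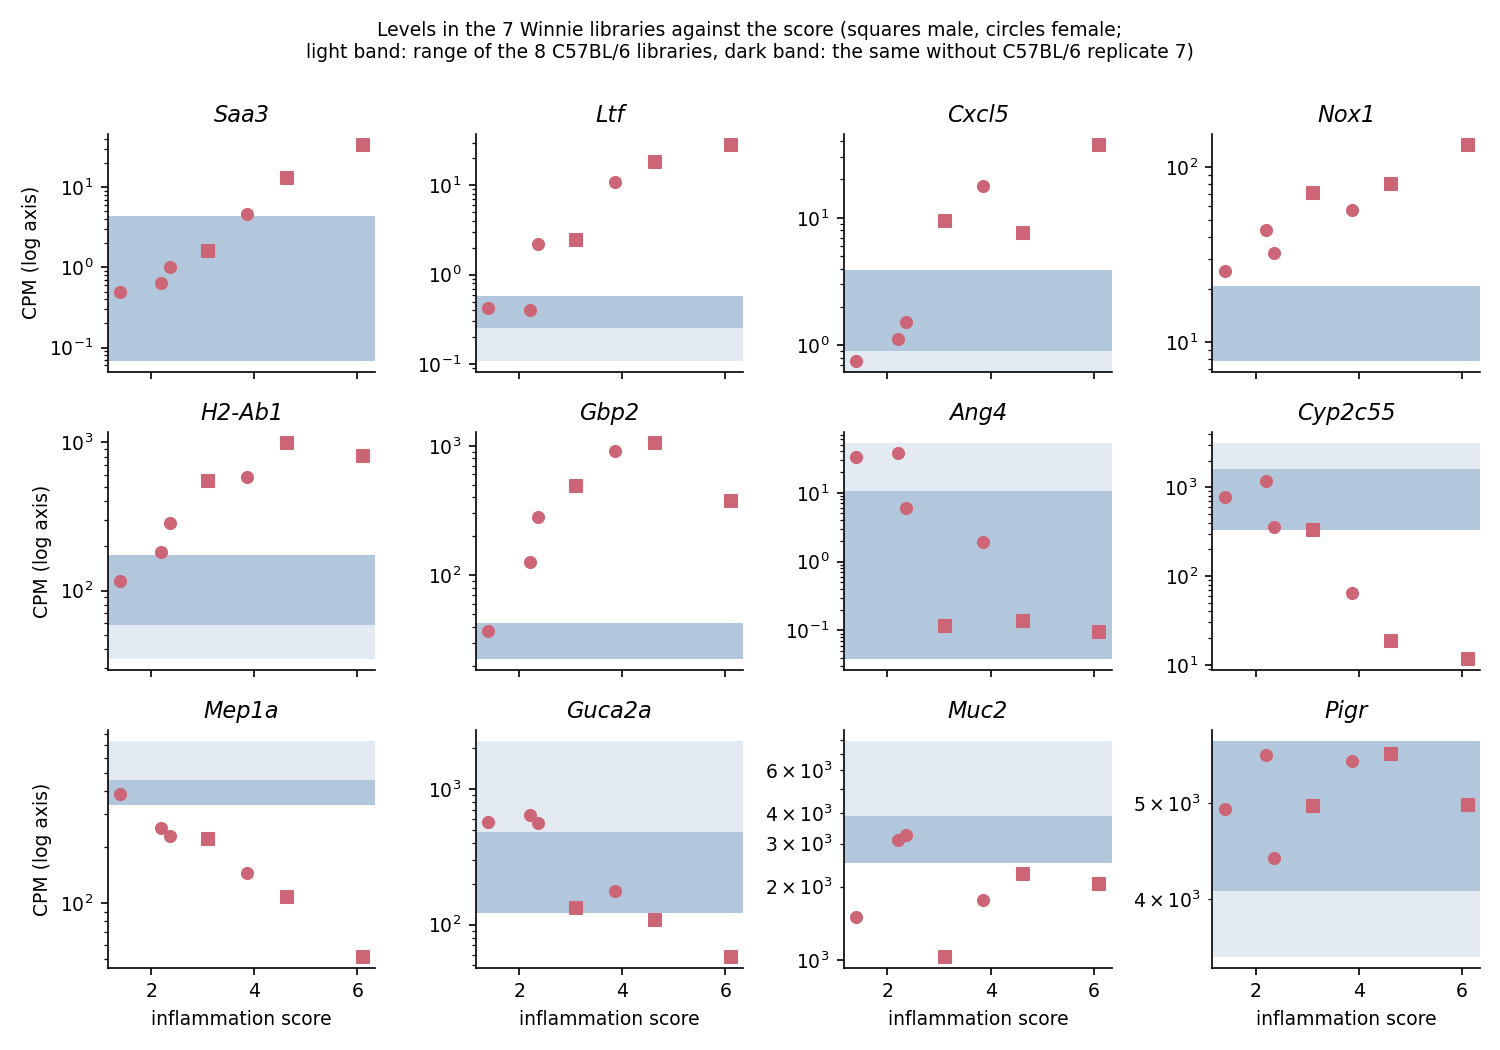
CPM on a log axis against the inflammation score for 12 genes in the 7 Winnie libraries (squares male, circles female), with the C57BL/6 range as a light band (8 libraries) and a dark band (without replicate 7). Saa3, Ltf and Nox1 climb and Cyp2c55 and Mep1a drop across the scale, H2-Ab1 and Gbp2 are highest in replicate 1, and Muc2 and Pigr show no trend.

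Of 16 neutrophil granule and receptor genes on the list, 9 were tested and 7 rose (none fell), with a median slope of 0.81. Of these 7, Cxcr2, Il1r2, Mmp9 and Trem1 reached the limit of 1 CPM only through replicate 2, which has the highest score, so they had to be higher there and the count and the median give no support by themselves. Among all 331 rising genes 27 passed in this way, and of the 391 falling genes 7 passed only through replicate 5, the lowest. Csf3r was 1.05, 1.72, 1.84, 3.82, 2.75, 4.95 and 35.4 CPM (slope 0.99 ± 0.10, adjusted p = 0.00679) and Cxcr2, the chemokine receptor of neutrophils, 0, 0.101, 0.0575, 0.578, 0.201, 0.413 and 7.34 CPM (slope 1.55 ± 0.21, adjusted p = 0.0136). Both lie far higher in replicate 2 than elsewhere, and Cxcr2 had no count in replicate 5, so its fitted slope depends on the prior count. Trem1, an amplifying receptor of myeloid cells, was at most 0.270 CPM in 6 libraries and 6.22 CPM in replicate 2. Cd177, which colonocytes also express, was 108, 279, 285, 256, 455, 662 and 858 CPM (slope 0.54 ± 0.10, adjusted p = 0.0251), above the C57BL/6 range of 37.5 to 84.7 CPM in all 7. With single libraries left out 1 to 7 members of the list were called, 1 without replicate 2 and 1 without replicate 5, and 0 with sex as a covariate.

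Of 7 tested neutrophil and monocyte chemokines 4 rose (median slope 0.78). Cxcl2 was 0.164, 0.203, 0.345, 1.85, 1.54, 4.51 and 7.56 CPM (slope 1.21 ± 0.16, adjusted p = 0.0135), Cxcl5 0.755, 1.11, 1.52, 9.41, 17.8, 7.57 and 37.4 CPM (adjusted p = 0.0313) and Cxcl1 0.361, 0.946, 0.949, 3.24, 1.14, 5.17 and 8.39 CPM (slope 0.85 ± 0.15, adjusted p = 0.0251). They bind Cxcr2 and had their lowest values in the 3 lowest libraries, and Cxcl1 and Cxcl2 were lower in replicate 7 than in replicate 3. Ccl2, which draws monocytes, was 0.295, 1.01, 1.15, 2.58, 1.47, 5.26 and 6.06 CPM (slope 0.78 ± 0.15, adjusted p = 0.0295). Of the 5 tested cytokines Il1b (1.97, 3.48, 6.07, 5.94, 4.29, 9.08 and 51.4 CPM, slope 0.84 ± 0.12, adjusted p = 0.0152) and Il11 (slope 1.02 ± 0.18, adjusted p = 0.0251) rose, and Il18, made by epithelium, fell (124, 103, 78.2, 51.2, 70.8, 30.1 and 37.7 CPM, slope -0.41 ± 0.09, adjusted p = 0.0414). Il11 was 0.234 to 0.655 CPM in 6 libraries and 8.94 CPM in replicate 2, and passed the limit on mean CPM only through it. With single libraries left out 0 to 5 chemokines were called, 0 of them without replicate 5, and 0 to 3 cytokines rose, 0 without replicate 2 and 0 without replicate 5.

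Some further single genes are named after their values were seen, and their directions say nothing about a group. Socs3, the feedback inhibitor of STAT3, was 12.9, 17.3, 21.3, 33.5, 42.1, 35.1 and 88.8 CPM (slope 0.53 ± 0.06, adjusted p = 0.00752) and Osmr, the receptor of oncostatin M, 7.48, 7.53, 8.95, 17.2, 20.7, 31.5 and 37.6 CPM (slope 0.57 ± 0.07, adjusted p = 0.00888). Plaur, the urokinase receptor, was 6.07, 8.68, 11.05, 14.2, 11.5, 22.5 and 50.1 CPM (slope 0.58 ± 0.06, adjusted p = 0.00679) and Nox1, the NADPH oxidase of colonic epithelium, 25.4, 43.8, 32.1, 71.3, 56.7, 80.01 and 134 CPM (slope 0.45 ± 0.06, adjusted p = 0.0116). Nox1 was above the C57BL/6 range of 7.79 to 20.9 CPM in all 7 Winnie libraries, and Socs3 above 7.18 to 10.2 CPM in all 7 once C57BL/6 replicate 7 is set aside (5 of 7 with it). The bacterial sensor gene Nod2 was 1.84, 1.76, 1.98, 4.47, 4.45, 5.86 and 8.78 CPM (slope 0.52 ± 0.07, adjusted p = 0.0142), while Clec4e, a receptor of macrophages and neutrophils, was at most 1.02 CPM outside replicate 2 and 5.67 CPM in it, and passed the limit on mean CPM only through that library.

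Some called genes were carried by replicate 2 alone. Krt6a and Krt5, keratins of stratified epithelium, were at most 0.0863 and 0.361 CPM in the other 6 libraries and 9.997 and 12.9 CPM in replicate 2. Reg3b was at most 0.405 CPM elsewhere and 21.2 CPM there. All 3 passed the limit on mean CPM only through that library. Without replicate 2 the slopes of Krt5 and Reg3b turned to -0.25 and -0.22, with no call. The seminal vesicle genes Svs2, Svs4 and Svs5 had 461, 323 and 478 counts in replicate 2, 9, 8 and 6 in replicate 1 and at most 2 in any other Winnie library. Their called slopes describe that library, a male. Of 7 tested keratin and squamous genes edgeR called Krt5 and Krt6a alone, while DESeq2 called 3 rises and limma-voom 0. With edgeR the slopes ran from -0.42 to 2.22, and the median went from 0.61 to -0.21 without replicate 2, with no call. Krt13, Krt5 and Krt6a, 3 of the 7, passed the limit on mean CPM only through replicate 2, so the median gives no support by itself. The part of these transcripts in the other results was not tested, beyond the counts without replicate 2 above.

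Interferon gamma targets had a median slope of 0.65, against 0.0011 for all genes, but none of the 20 was called. All 20 slopes were positive, and 17 had an unadjusted p under 0.05. DESeq2 called 16 of the 20, and 5 were called by edgeR without replicate 2. Gbp2, a guanylate-binding protein of cell-autonomous defence, was 36.7, 127, 280.0, 489, 904, 1052 and 377 CPM (slope 0.81 ± 0.35, adjusted p = 0.198). Tap1, the peptide transporter for class I presentation, was 22.9, 66, 93.2, 199.6, 220.5, 285 and 226 CPM (slope 0.64 ± 0.19, adjusted p = 0.0928), and Cxcl9, a T cell chemokine, 1.05, 11.3, 14.7, 17.7, 39.2, 141 and 46.6 CPM (slope 1.15 ± 0.33, adjusted p = 0.0819). In all 3 the highest library was replicate 1, and replicate 2, with the highest score, lay below it. Of 14 type I interferon targets none was called by edgeR (median slope 0.16, 6 with an unadjusted p under 0.05, 5 called by DESeq2). Their median was 0.40 without replicate 4, with 2 calls, 0.35 without replicate 2 and 0.06 without replicate 5.

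MHC class II genes rose in part: 4 of 9 tested, with a median slope of 0.64. H2-Ab1 was 116, 182, 285, 545, 587, 993 and 809.7 CPM (slope 0.64 ± 0.14, adjusted p = 0.0404) and Cd74, the invariant chain, 264, 405, 776, 1976, 1811, 3211 and 2861 CPM (slope 0.77 ± 0.18, adjusted p = 0.0474). H2-Eb1 and H2-DMa also rose (slopes 0.59 ± 0.11 and 0.76 ± 0.17), while H2-Aa had 136, 196, 325, 809.6, 822, 1428 and 944 CPM (slope 0.70 ± 0.18, adjusted p = 0.0646). All 5 were highest in replicate 1 and lower in replicate 2. Among the other members Ctss had a slope of -0.06 ± 0.05, adjusted p = 0.491 and H2-Ob of -0.02 ± 0.17, adjusted p = 0.948. Calls in the list came to 6 without replicate 2 and to 0 without replicate 1, 4, 5 or 6. In Winnie-Prolapse the median slope of the same list was -0.08.

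Of 18 tested genes of absorbing colonocytes 6 fell with edgeR, 12 were not called and none rose (median slope -0.15). DESeq2 called 8 falls and 1 rise. At an unadjusted p under 0.05, 8 fell and 2 rose, the sodium channel subunit gene Scnn1g (slope 0.54 ± 0.20, adjusted p = 0.143) and the chloride uptake gene Slc12a2 (0.14 ± 0.06, adjusted p = 0.186). Slc26a3, the chloride-bicarbonate exchanger that dehydrates stool, was 3375, 2582, 2259.8, 794, 1351, 1152 and 502 CPM (slope -0.56 ± 0.11, adjusted p = 0.0362). Car1, Car2 and Car4, carbonic anhydrases that feed this exchange, had slopes of -0.78 ± 0.10, -0.36 ± 0.06 and -0.62 ± 0.13 (adjusted p = 0.011, 0.0184 and 0.042), and Car1 was 1917, 1973, 1272, 736, 660.1, 269.8 and 219 CPM. Aqp8, a water channel, was 571, 775, 491, 229, 284, 241 and 140.0 CPM (slope -0.52 ± 0.11, adjusted p = 0.0374), and Guca2a, the hormone guanylin, 577, 641, 562, 133, 177, 109 and 57.5 CPM (slope -0.84 ± 0.14, adjusted p = 0.0196). All 6 were lowest in replicate 2. Epcam, an adhesion gene of all epithelium, was not called, at 1532, 1710.4, 1826, 1555, 1785, 1560.5 and 1482 CPM (slope -0.05 ± 0.06, adjusted p = 0.644, 95% interval -0.18 to 0.09). Single libraries left out gave 0 to 6 calls, 0 without replicate 2 and 0 without replicate 5.

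Of 16 tested detoxification genes 5 fell and 13 had an unadjusted p under 0.05 for a fall (median slope -0.29), while DESeq2 called 12. Beside Cyp2c55 and Ces2a these were Fmo5, a flavin monooxygenase gene (65.3, 35.6, 23.4, 32.1, 26.98, 15.8 and 9.003 CPM, slope -0.54 ± 0.07, adjusted p = 0.0137), the sulfotransferase gene Sult1a1 (slope -0.35 ± 0.07, adjusted p = 0.0294) and Aldh1a1, which makes retinoic acid (slope -0.32 ± 0.05, adjusted p = 0.0142). Abcb1a, the xenobiotic efflux pump named after its values were seen, was 819, 912, 663, 558, 286, 257 and 198 CPM (slope -0.54 ± 0.07, adjusted p = 0.013). It stayed near the C57BL/6 range of 479 to 885 CPM up to replicate 3 and fell below it in the upper 3 libraries. Of 18 genes of butyrate uptake and fatty acid oxidation 2 fell by small slopes, Acadm (117, 105, 94.5, 103, 90.9, 77.3 and 75.1 CPM, slope -0.15 ± 0.03, adjusted p = 0.0288) and Hadh (-0.15 ± 0.03), 11 had an unadjusted p under 0.05 for a fall, and the median was -0.15, while DESeq2 called 9 falls and the fit with the smooth muscle covariate 6. With single libraries left out 0 to 8 detoxification genes fell, 0 without replicate 2 and 1 without replicate 5 (without replicate 3, 1 also rose), and 0 to 5 fatty acid oxidation genes fell, 0 without either. Of 19 nuclear respiratory chain genes none was called (median slope -0.05, 2 with an unadjusted p under 0.05, 1 called by DESeq2).

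Goblet cell genes were set beside all tested genes, of which 2.61% fell and 2.21% rose. Of 14 goblet cell genes tested, Clca1 and Klk1 (slope -0.70 ± 0.13, adjusted p = 0.0272) fell and none rose, with a median of -0.08. Without replicate 1, 2 or 5, with sex as a covariate or with the score without S100a8 and S100a9, no goblet cell gene was called. Muc2 itself (ENSMUSG00000025515, chr7:141690340-141754693, plus strand) was 1505, 3099.8, 3254, 1029, 1762, 2252 and 2045 CPM against 2505 to 7901 CPM in C57BL/6 (2505 to 3893 CPM without replicate 7). It was below that range in 5 of 7 Winnie libraries, among them replicate 5 with the lowest score, and had a slope of -0.07 ± 0.14, adjusted p = 0.793 (95% interval -0.40 to 0.26). The sign of that slope turned positive (0.21) with sex as a covariate. Agr2, a disulfide isomerase gene needed for mucin folding, was 881, 1899, 1623, 801, 1193, 1312 and 1423 CPM, above the C57BL/6 range of 379 to 621 CPM in all 7, with a slope of -0.01 ± 0.12, adjusted p = 0.97 (95% interval -0.28 to 0.26). Of 20 endoplasmic reticulum stress genes none was called by edgeR or DESeq2 (3 and 5 with an unadjusted p under 0.05), and the slopes ran from -0.08 to 0.20. Chac1, a target of the stress factor ATF4, was 2.85, 16.2, 12.5, 1.85, 9.31, 10.3 and 9.26 CPM, above the C57BL/6 range of 0.579 to 1.52 CPM in all 7 (slope 0.02 ± 0.24, adjusted p = 0.972), and Hspa5, the chaperone BiP, was 257, 524, 546, 368, 566, 580.4 and 744 CPM (slope 0.20 ± 0.09, adjusted p = 0.232). Muc2, Agr2 and Chac1 thus lay outside the C57BL/6 range in most or all Winnie mice, whatever their score.

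Among immune cells other than neutrophils, 4 of 15 macrophage and monocyte genes rose (median slope 0.31), such as Cd14 (32.2, 35.4, 44.8, 52.4, 76.2, 75.4 and 90.9 CPM, slope 0.33 ± 0.06, adjusted p = 0.023) and Ccr2 (4.13, 7.16, 6.07, 7.94, 10.6, 14.6 and 15.7 CPM, slope 0.39 ± 0.07, adjusted p = 0.0229). Of 14 T and NK cell genes 2 rose, Icos (slope 0.39 ± 0.08, adjusted p = 0.0417) and Il2ra (slope 0.34 ± 0.08, adjusted p = 0.0474), with a median of 0.34, and DESeq2 called 8. Of 15 plasma cell genes Ighg2c alone rose (median 0.19), while Igha, the class of mucosal antibody, was 1349, 3398, 3535, 1367, 2063, 5476 and 4909 CPM, above 248 to 1185 CPM in all 7 Winnie libraries, with a slope of 0.27 ± 0.16, adjusted p = 0.325. None of 11 B cell and lymphoid follicle genes was called by edgeR or DESeq2 (0 with an unadjusted p under 0.05, median 0.01). Complement genes rose in 5 of 14 (median 0.26), among them C1ra (15.9, 19.3, 25.5, 39.2, 33.1, 52.6 and 72.8 CPM, slope 0.44 ± 0.05, adjusted p = 0.00871). Of 16 cell cycle genes 4 rose, the replication genes Mcm2, Mcm3, Mcm5 and Rrm2, with a median of 0.22. Without replicate 5 no macrophage, T cell, plasma cell, complement or cell cycle gene of these lists was called, and without replicate 2 a single complement gene was.

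Genes of the muscle, the nerves and the stroma were mostly not called, as held for all tested genes, of which edgeR called 4.83%. Of 12 smooth muscle genes none was called in either edgeR or DESeq2 (0 with an unadjusted p under 0.05), the slopes ran from -0.15 to -0.04, and their summed level was 2609 to 10097 CPM in Winnie against 8724 to 16805 CPM in C57BL/6. None of 13 enteric neuron genes was called (5 with an unadjusted p under 0.05, 2 by DESeq2, median -0.24) and none of 16 fibroblast and collagen genes (6, 4 by DESeq2, median 0.18). The enteric neuron median was -0.03 without replicate 5 (0 with an unadjusted p under 0.05) and -0.30 without replicate 6 (10). The fibroblast and collagen median was 0.03 without replicate 2 (0), and without replicate 3 2 of these genes rose. Of 9 fat genes Pck1 alone was called, as a fall, with a summed level of 54.4 to 502 CPM in Winnie and 195 to 468 CPM in C57BL/6. The fat median was -0.22, and 0.02 without replicate 2. Without replicate 1 it was -0.88, and 7 of the 9 fell at an unadjusted p under 0.05 with edgeR. Erbb3, a neuregulin receptor gene on the glia list (-0.25 ± 0.04, adjusted p = 0.0181), and Ano1, the chloride channel gene of the interstitial cells of Cajal (-0.23 ± 0.04, adjusted p = 0.0216), fell as single members of 8 and 9 tested. With the smooth muscle level as a covariate, 544 genes rose and 663 fell, 330 of the 331 and all 391 among them.

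In the other lists edgeR called some members, beside 2.21% rising and 2.61% falling over all tested genes. Among all 14955 tested genes DESeq2 called 995 rises and 1127 falls. It called 5 rises and 1 fall among 13 antimicrobial and oxidase genes. There were 4 rises among 14 repair genes and 1 among 12 stem cell genes. DESeq2 also called 4 falls among 12 tuft and enteroendocrine genes and 3 rises among 11 matrix genes. Of 14 junction genes 1 rose and 1 fell with DESeq2. Of 13 epithelial antimicrobial and oxidase genes Nox1, Reg3b and Saa3 rose (median slope 0.38), of 14 repair genes Anxa1 (187, 209, 287, 279, 388, 374 and 492 CPM, slope 0.27 ± 0.06, adjusted p = 0.0407) and Plaur (median 0.19), and of 12 stem cell genes Cd44, a hyaluronan receptor (30.7, 43.03, 46.5, 56.1, 46.2, 59.7 and 87.7 CPM, slope 0.25 ± 0.05, adjusted p = 0.0284). Of 12 tuft and enteroendocrine genes Trpm5, the cation channel of tuft cells, fell (9.09, 4.96, 7.39, 1.35, 2.81, 2.26 and 0.577 CPM, slope -0.78 ± 0.17, adjusted p = 0.04), and of 14 junction genes Ocln, occludin (137, 124, 118, 126, 97.3, 85.2 and 83.6 CPM, slope -0.18 ± 0.03, adjusted p = 0.021). Icam1, which binds leukocytes to vessel walls, was the 1 of 12 endothelial genes that rose with edgeR (5.94, 7.97, 8.57, 19.01, 11.5, 17.7 and 28.2 CPM, slope 0.43 ± 0.08, adjusted p = 0.0238), while DESeq2 called 3. Of 11 matrix proteases and inhibitors Mmp3 (0.853, 0.642, 0.374, 1.08, 0.636, 0.963 and 10.3 CPM, slope 0.80 ± 0.17, adjusted p = 0.0398) and Mmp10 (slope 0.87 ± 0.16, adjusted p = 0.0286) rose. Mmp3 passed the limit on mean CPM only through replicate 2, so its direction was fixed by the limit. Of these genes only Saa3 was called both without replicate 2 and without replicate 5. None of 18 glycolysis genes (3 rising and 4 falling with an unadjusted p under 0.05, 1 and 3 called by DESeq2), 3 erythrocyte genes (1, 1 by DESeq2) or 1 milk protein gene (0, 0 by DESeq2) was called.

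**Figure D3:**
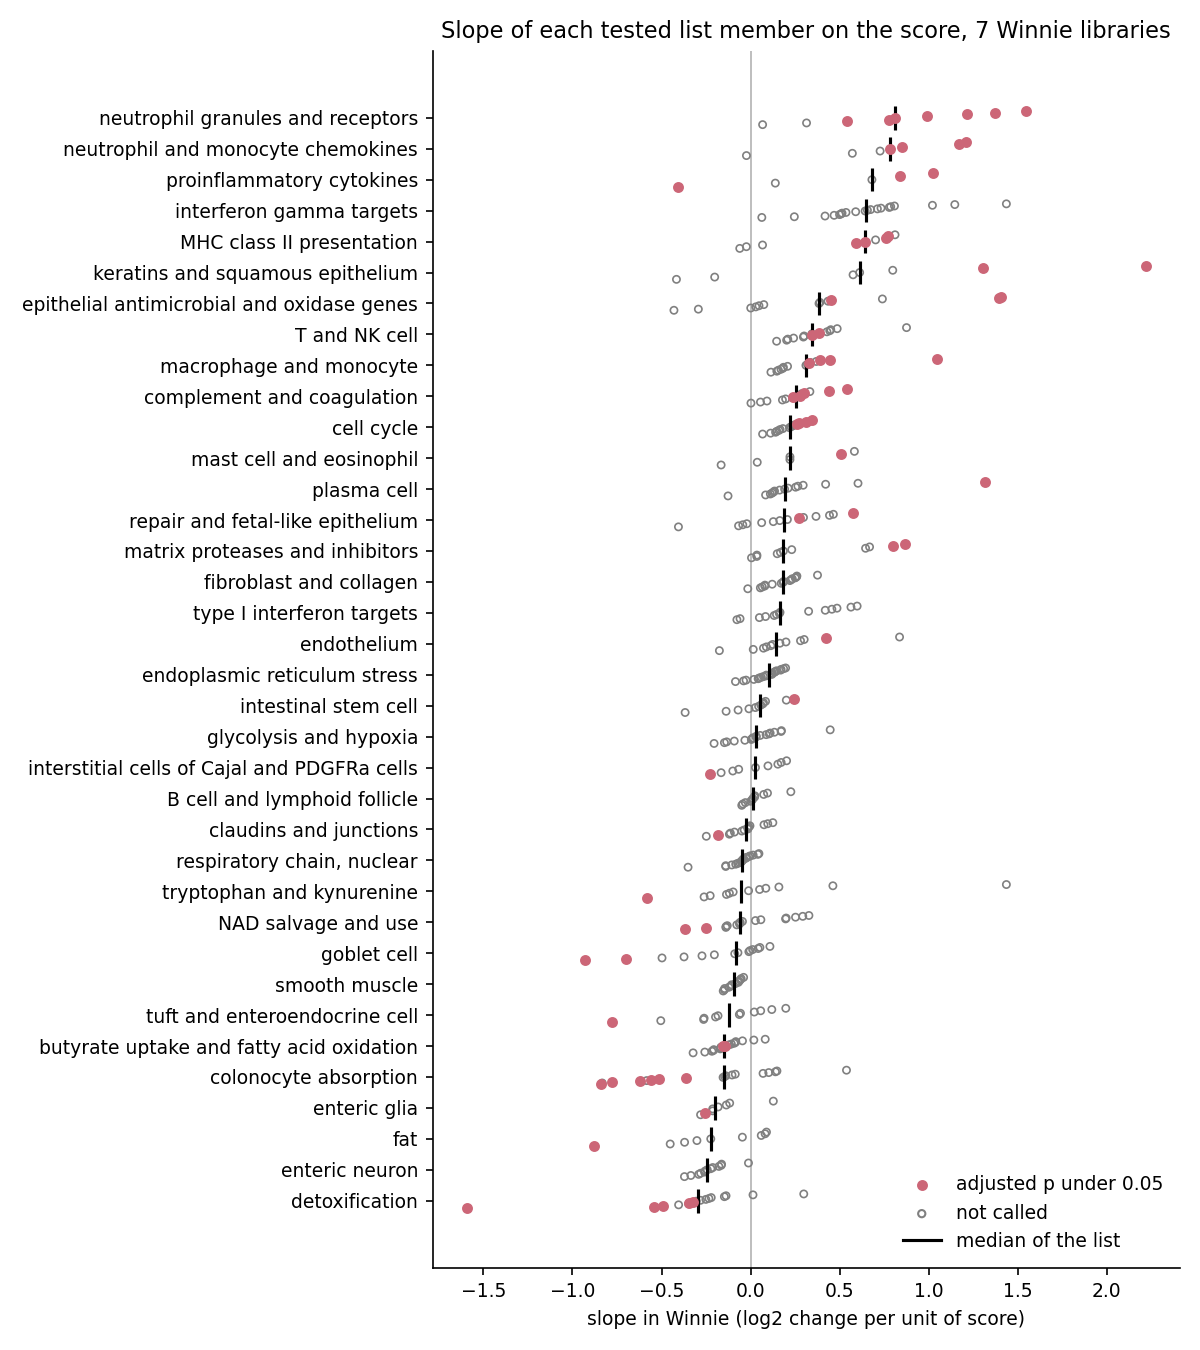
Slope on the score (log2 change per unit) of each tested member of the lists with 5 or more tested genes in the 7 Winnie libraries, with filled points for an adjusted p under 0.05, open points for the rest and a line at the list median. List medians run from 0.81 (neutrophil genes, 4 of the 9 passing the limit on mean CPM only through replicate 2, median 0.64 without that library) to -0.29 (detoxification), and interferon gamma targets lie to the right of 0 with no filled point. Of the 7 keratin and squamous genes, 3 also passed that limit only through replicate 2.

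The study asked about tryptophan and nicotinamide metabolism. Ido1, which opens the kynurenine route of tryptophan breakdown, was 0.558, 6.08, 36.4, 42.8, 127, 302 and 115 CPM, highest in replicate 1, with a steep slope and a wide error (1.44 ± 0.47, adjusted p = 0.111, 95% interval 0.36 to 2.51). It was above the C57BL/6 range of 0.708 to 4.52 CPM in 6 of 7 libraries. Kynu, further down that route, was 1.35, 1.49, 0.892, 0.694, 1.47, 2.31 and 1.76 CPM (slope 0.16 ± 0.12, adjusted p = 0.457). Every Winnie library lay inside the C57BL/6 range of Kynu, which was 0.361 to 2.85 CPM without C57BL/6 replicate 7. Of 12 tryptophan genes edgeR called only Ccbl1, a kynurenine aminotransferase gene, which fell (slope -0.58 ± 0.13, adjusted p = 0.047). DESeq2 called 2 rises and 2 falls in this list, and limma-voom 0. Nampt, the salvage enzyme of NAD, was 67.8, 103, 114, 123, 143, 192 and 131 CPM (slope 0.20 ± 0.09, adjusted p = 0.203) and Cd38, which consumes NAD, 288, 395, 396, 372, 693, 548 and 561 CPM (slope 0.20 ± 0.09, adjusted p = 0.2). Of 17 NAD genes 2 fell with edgeR, Naprt, which uses nicotinic acid (72.6, 53.03, 47.6, 38.6, 47.2, 28.9 and 20.6 CPM, slope -0.37 ± 0.06, adjusted p = 0.0184), and the mitochondrial deacylase gene Sirt3 (17.8, 10.7, 10.6, 9.60, 10.8, 7.84 and 7.08 CPM, slope -0.25 ± 0.06, adjusted p = 0.0486). DESeq2 called 2 falls and 2 rises among the NAD genes. Without replicate 1, 2 or 5 no fall was called in either list, and without replicate 2 or 3 1 NAD gene rose. With single libraries left out, a tryptophan gene was called only without replicate 3.

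Each mouse was also placed against healthy colon, gene by gene. Of the 331 rising genes, 19 lay above the highest C57BL/6 value in Winnie replicate 5, 76 in replicate 4, 114 in replicate 6, 238 in replicate 3, 207 in replicate 7, 298 in replicate 1 and 328 in replicate 2. Of the 391 falling genes, 12, 93, 156, 200, 248, 293 and 334 lay below the lowest C57BL/6 value in the same order. Without C57BL/6 replicate 7 the rising counts were 32, 103, 142, 258, 235, 309 and 330 and the falling counts 26, 158, 239, 288, 330, 362 and 387. In replicate 5, 23 rising genes lay below the C57BL/6 range and 63 falling genes above it, more than the 19 and 12 on the other side. In replicate 4 these opposite counts were 14 and 20, and in each of the other 5 libraries at most 7 and 3. The least inflamed mouse was within the C57BL/6 range for 289 rising and 316 falling genes, and the order follows from how they were called. Over all genes tested, the 7 Winnie libraries lay wholly above C57BL/6 for 82 genes (0.548%) and wholly below for 162 (1.08%), or for 152 (1.02%) and 254 (1.70%) without C57BL/6 replicate 7. Of the 82, 15 rose with the score and none fell, and of the 162, 12 fell and none rose, so 67 and 150 of these genes were outside the C57BL/6 range in every mouse with no called slope. Agr2, Chac1 and Igha are among the 82.

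**Figure D4:**
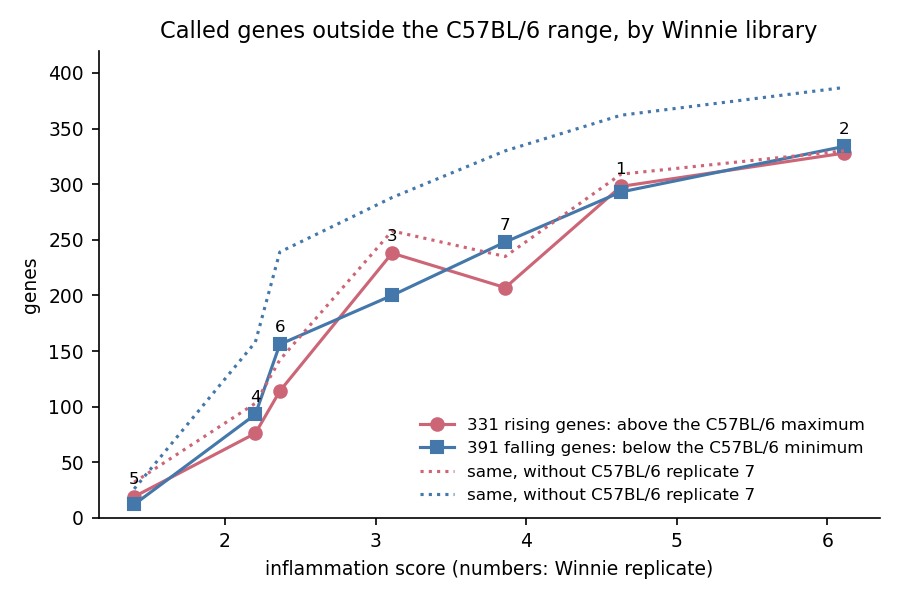
Number of called genes outside the C57BL/6 range (331 rising genes above the maximum, 391 falling genes below the minimum) in each Winnie library against its score, with dotted lines for the same without C57BL/6 replicate 7. The counts go from 19 and 12 in replicate 5 to 328 and 334 in replicate 2.

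The same relation was then measured in Winnie-Prolapse, which shares no library with Winnie. Of 15378 genes none was called there by edgeR (0% rising, 0% falling, smallest adjusted p 0.143), though 1081 rising (7.03%) and 1204 falling (7.83%) had an unadjusted p under 0.05 and DESeq2 called 365 and 306. Without Winnie-Prolapse replicate 2, 21 and 25 were called. Of the genes that rose in Winnie, 328 were tested and 309 had a positive slope in Winnie-Prolapse (94.2%, against 49.4% of all tested genes), 138 of them with an unadjusted p under 0.05 (42.1%). Of those that fell, 366 were tested and 349 had a negative slope (95.4%, against 50.6%), 199 with an unadjusted p under 0.05 (54.4%) and 1 in the opposite direction. Without Winnie-Prolapse replicate 6, the milk library, 308 and 348 kept the direction. When the calls came from 6 Winnie libraries, the shares were 48 of 60 (80.0%) and 21 of 26 (80.8%) without Winnie replicate 2, and 21 of 21 and 17 of 17 without Winnie replicate 5.

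Slopes in both groups can be set side by side. Saa3 had 1.41 in Winnie and 0.75 in Winnie-Prolapse, Csf3r 0.99 and 1.01, Cxcl2 1.21 and 1.65, and Il1b 0.84 and 1.02. Mep1a had -0.60 and -1.10, Hao2 -0.81 and -1.10, Pdzd7 -1.02 and -1.37 and Slc26a3 -0.56 and -0.94. H2-Ab1 had 0.64 and -0.05, Cd177 0.54 and -0.15 and Ces2f 1.07 and -0.21. In a test of the difference of slopes between the groups over 14 libraries, none of 15710 genes was called (0%, smallest adjusted p 0.580), 471 and 468 had an unadjusted p under 0.05 with the higher slope in Winnie-Prolapse and in Winnie, and DESeq2 called 56. The smallest p-values were those of G0s2 (slope 0.17 in Winnie and 1.59 in Winnie-Prolapse), Lrrc55, Cela1 (-0.32 and -0.70), Alox5ap (0.12 and 1.11) and Prlr (-0.75 and 0.73). A difference between the groups was therefore not detected for any gene with edgeR.

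**Figure D5:**
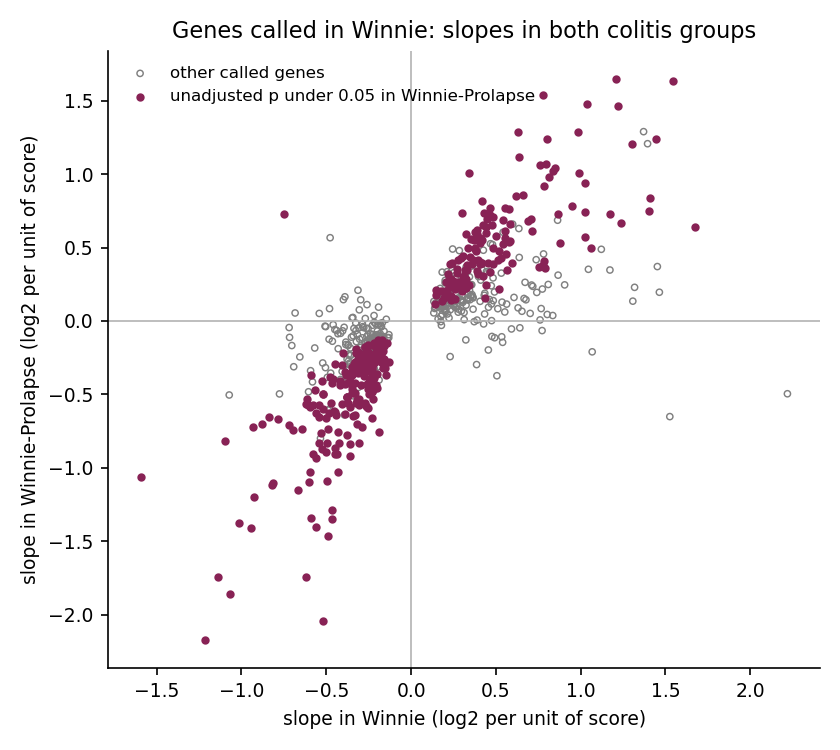
Slope in Winnie-Prolapse against slope in Winnie (log2 change per unit of score) for the genes called in Winnie and tested in both, with filled points for an unadjusted p under 0.05 in Winnie-Prolapse. Of the rising genes 309 of 328, and of the falling genes 349 of 366, lie on the same side of 0 in both groups.

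In C57BL/6 mice 104 of 15244 genes rose with the same score (0.682%) and 10 fell (0.0656%), or 0.748% together, and none was called without C57BL/6 replicate 7, the library with the low distal markers. With DESeq2 473 and 390 were called. Of the genes rising in Winnie 135 of 276 had a positive slope there (48.9%, against 49.9% of all genes), and of those falling 254 of 391 a negative one (65.0%, against 50.1%). The C57BL/6 score spans 1.24 units against 4.72 in Winnie.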

How the data were processed

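RNA of 22 distal colon samples was analysed, 1 library per mouse. Per the labels and the methods, the authors selected poly(A) RNA, made stranded libraries, sequenced them in paired ends and ran RNAsik 1.5.4 on GRCm38. The labels also name STAR, featureCounts and limma. The annotation release, the strand setting and the handling of shared reads are not given in the sources used here, so paralogs and antisense genes are uncertain. The deposited table holds raw counts for 46078 genes. Gene positions are from GENCODE M21.

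From these counts, CPM (scaled by library totals), the score and slopes were computed. Slopes came from edgeR 4.0.16 (R 4.3.3) with TMM, the score as a numeric term over the 7 Winnie libraries, genes with a mean of at least 1 CPM and Benjamini-Hochberg adjustment over all of them. The 6 score genes were left out. Calls used an adjusted p below 0.05, whatever the fold. DESeq2 1.42.0, limma-voom 3.58.1, other scores, filters, covariates and leaving out libraries were alternatives, and the share of genes in the same direction in Winnie-Prolapse, the list counts under each alternative and the C57BL/6 ranges without replicate 7 were added after seeing the data. With changed genes simulated in the Winnie fit over 14955 genes, 156 of 200 slopes of 0.5 (78%) and 199 of 200 slopes of 1 (99.5%) were recovered, with 9 and 8 false calls.

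The libraries, the 6 genes and the gene lists (541 of 542 symbols found, 4 of them by an older name) were chosen with earlier results of these data known. Genes to name were Muc2, 4 pathway genes, the 10 largest slopes in each direction among called genes with a mean of at least 5 CPM and r of at least 0.5 in size without the 2 libraries farthest from the median score, the 3 highest members of each list and the 5 smallest interaction p-values. Immunoglobulin variable segments and unnamed gene models were not named among the 10. Other genes are named after their values were seen. Library totals were 24.8 to 36.3 M counts, a limit of 3 counts being 0.0825 to 0.121 CPM, for counting error only. No pair of libraries agreed within sampling noise (lowest chi-square per degree of freedom in Winnie 32.1). Whether replicates are more than separate mice of the colony is not stated, so p-values measure the spread between these samples.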

Additional observations from a re-analysis of the deposited data

Results flagged for a closer look

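Of 40 sets of values checked for a library far from the others in its group, 2 stood out, and chance gives about 1 in 20. The level of Csf3r in Winnie replicate 2 was 5.17 on the log2(CPM + 0.5) scale, and its gap to the next library was 0.60 of the range of the group, above the limit of Dixon's test for 7 libraries. The level of Reg3g in Winnie replicate 2 was 4.94 on the same scale, with a gap of 0.68 of the range. Reg3g is part of the score that puts this library highest, so its value is a description and no test.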

How the results depend on the processing

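No paired analysis was possible because the replicate numbers only follow the sample list and pair no animals. Against 331 rising and 391 falling genes in Winnie, DESeq2 called 995 and 1127, the smooth muscle covariate gave 544 and 663, and sex as a covariate, an adjusted p under 0.001 and leaving out the 2 libraries farthest from the median score gave 0 and 0. Leaving out single libraries gave 24 to 739 rising and 17 to 722 falling genes. No TMM factors, limma-voom, the robust fit, other filters and other forms of the score stayed within 1.5 times (241 to 430 and 263 to 398). In Winnie-Prolapse (0 and 0) DESeq2 called 365 and 306, and single libraries left out gave 0 to 21 and 0 to 25. In C57BL/6 (104 and 10) DESeq2 called 473 and 390, sex as a covariate left 3 and 0, and single libraries left out gave 0 to 195 and 0 to 27. For the difference between the groups (0) DESeq2 called 56, 37 of them higher in Winnie-Prolapse. Same-direction shares in Winnie-Prolapse were 80.0% to 100% for rising and 80.8% to 100% for falling genes without Winnie replicate 2, Winnie replicate 5 or Winnie-Prolapse replicate 6. Other libraries were not left out for these shares, and with sex as a covariate no call was left to share. The slope of Muc2 on the score in Winnie ran from -0.169 to -0.000363 with single libraries left out. The correlation of the score with library size ran from -0.025 to 0.39, its sign turning without replicate 1. That with genes detected ran from -0.046 to 0.87 and turned to -0.030, -0.040, -0.046 and -0.016 without replicates 1, 2, 4 and 6. With single libraries left out the slope of Reg3b ran from -0.22 to 1.61 and that of Krt5 from -0.25 to 1.76, the negative values being without replicate 2, and without both far libraries those of Krt6a and Reg3b turned to -0.12 and -0.32. Of 3519 values of named genes under alternatives, 3075 kept their call and direction, 379 lost the call, 61 gained it and 4 turned, and 111 values of genes with no call changed sign. The cause of these changes was not tested. In simulation 78% of slopes of 0.5 were recovered, and smaller ones were not simulated.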

Other observations

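Further single genes are given here, each named after its values were seen. Tnfrsf8, the activated lymphocyte receptor CD30, was 3.97, 18.8, 11.99, 22.1, 23.9, 35.9 and 43.7 CPM in the order of the score, above the C57BL/6 range of 0.326 to 1.99 CPM (0.571 to 1.99 CPM without replicate 7) in all 7 libraries (slope 0.54 ± 0.13, adjusted p = 0.0593). Mcpt1, a mucosal mast cell protease gene, was 0.952, 0.946, 0.834, 2.005, 2.08, 3.91 and 3.43 CPM and rose (slope 0.51 ± 0.11, adjusted p = 0.0387), and was above 0.199 to 0.786 CPM in all 7. With edgeR it was the 1 called of 6 tested mast cell and eosinophil genes, while DESeq2 called 2 rises. Kit had a slope of -0.17 ± 0.06, adjusted p = 0.127, and the summed level of the list was 43.1 CPM in replicate 5 and 38.8 CPM in replicate 2. Irg1, which makes itaconate in activated macrophages, was 0.591, 0.405, 0.230, 1.35, 0.870, 2.04 and 12.9 CPM (slope 1.04 ± 0.15, adjusted p = 0.0142), and passed the limit on mean CPM only through replicate 2. Of the transporters, Slc15a1, which takes up peptides, was 529.7, 383, 357, 264, 275, 232 and 105 CPM and fell (slope -0.45 ± 0.06, adjusted p = 0.0142), and Rbp2, which binds retinol, was 35.2, 18.98, 21.3, 19.9, 16.4, 13.5 and 8.43 CPM and fell (slope -0.39 ± 0.05, adjusted p = 0.00974). Pigr, which carries antibody across the epithelium, was 4932, 5599, 4402, 4972, 5509, 5603 and 4977 CPM, inside the C57BL/6 range of 3499.9 to 5777 CPM in every Winnie library (slope 0.00 ± 0.06, adjusted p = 0.995, 95% interval -0.14 to 0.14).

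The seminal vesicle gene Svs6 had 68 counts in Winnie replicate 2, 3 in replicate 1 and 0 in the other 5 Winnie libraries, beside at most 2 in any C57BL/6 and 1 in any Winnie-Prolapse library. It was under the limit on mean CPM and was not tested.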
